A study of Mus musculus with 2 samples.

Results

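The genes that write, maintain and remove DNA methylation were examined in 2 murine rhabdoid tumors (RT), malignant tumors in which Smarcb1, part of the SWI/SNF remodeler, is typically lost. The set comprised 10 genes of the 55416 in the count table, listed by name as known DNA methylation enzymes and partners: Dnmt1, Uhrf1, Uhrf2, Dnmt3a, Dnmt3b, Dnmt3l, Tet1, Tet2, Tet3 and Tdg. All 10 were found by symbol and had 10 or more counts over both libraries. Both tumors came from Dppa3-cre::Smarcb1 Fl/+ mice on a C57BL/6 background, in which Dppa3, expressed in primordial germ cells (PGCs), drove Cre against a single floxed Smarcb1 allele. No treatment was given in the labels, and no age. One tumor was labelled intracranial, at the trigeminal nerve, the other extracranial, facial and maxillar, and both carried the label MYC. With 1 library per location there were no replicates, so every interval below covers counting error only, and a difference is one between 2 libraries and not between 2 locations. Normal tissue, PGCs and DNA methylation itself were not analysed here.

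In mammals, DNA is methylated mostly at cytosines followed by guanine (CpG). DNMT1 copies the pattern onto the new strand after replication and is brought there by UHRF1, which reads hemimethylated CpGs, whereas DNMT3A and DNMT3B set new methylation and DNMT3L, which has no catalytic activity of its own, assists them in germ cells. TET enzymes oxidize methylcytosine, and TDG cuts out the oxidized bases so that base excision repair can restore cytosine. PGCs are known for losing most of their DNA methylation during development.

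The libraries held 34545846 counts (labelled intracranial) and 26915696 counts (labelled extracranial), and the 10 genes took 0.0302% and 0.031% of them. Levels are counts per 1000000 (CPM) of the library size, scaled between libraries by the trimmed mean of M-values (TMM). Counts of 3 or fewer, which correspond to 0.0863 and 0.112 CPM, were treated as background. The targeted gene Smarcb1 had 365 and 530 counts, which is 10.5 and 19.8 CPM, and since reads were counted over the whole gene these counts do not check the deletion. Some markers of other cells differed by more than any of the 10 genes did. Keratinocyte markers reached a sum of 13628 CPM under the intracranial label but 0.262 CPM under the extracranial one, where Krt5, Trp63 and Dsg3 were at 0, although the former tumor was labelled as lying at a nerve. Schwann cell markers summed to only 23.4 and 4.07 CPM, with Sox10 at 0 in the library labelled extracranial. In bulk tissue fewer cells of a type and less RNA per cell cannot be told apart. Because these markers go against the label of the first library, each library is called by its label only.

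Since these genes act on CpGs, the RefSeq windows around their own transcription starts (build GRCm38.p6, 250 bases before to 50 bases after the start) are shown for 5 genes, namely Dnmt1, Dnmt3a and the low member Dnmt3l among the methyltransferases, and Tet2 and the low member Tet1 among the TET genes. Windows were found for all 10 genes, 17 in total, and for genes with several starts the window with the most CpGs is printed. Capitals mark each CpG.
Dnmt1, chr9:20952574-20952873, minus strand: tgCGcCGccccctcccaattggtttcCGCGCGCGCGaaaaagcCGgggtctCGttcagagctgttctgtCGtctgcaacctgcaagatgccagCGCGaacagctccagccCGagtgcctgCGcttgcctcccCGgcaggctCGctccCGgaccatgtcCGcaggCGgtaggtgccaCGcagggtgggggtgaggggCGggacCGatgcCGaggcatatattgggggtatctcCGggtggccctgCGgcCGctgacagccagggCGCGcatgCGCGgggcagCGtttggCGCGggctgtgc
Dnmt3a, chr12:3806910-3807209, plus strand: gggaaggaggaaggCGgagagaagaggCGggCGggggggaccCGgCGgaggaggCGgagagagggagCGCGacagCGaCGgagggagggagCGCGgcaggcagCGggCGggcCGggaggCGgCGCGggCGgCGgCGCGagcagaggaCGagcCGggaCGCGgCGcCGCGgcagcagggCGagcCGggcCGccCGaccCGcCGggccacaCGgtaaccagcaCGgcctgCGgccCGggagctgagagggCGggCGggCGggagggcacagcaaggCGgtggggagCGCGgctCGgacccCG
Dnmt3l, chr10:78042037-78042336, plus strand: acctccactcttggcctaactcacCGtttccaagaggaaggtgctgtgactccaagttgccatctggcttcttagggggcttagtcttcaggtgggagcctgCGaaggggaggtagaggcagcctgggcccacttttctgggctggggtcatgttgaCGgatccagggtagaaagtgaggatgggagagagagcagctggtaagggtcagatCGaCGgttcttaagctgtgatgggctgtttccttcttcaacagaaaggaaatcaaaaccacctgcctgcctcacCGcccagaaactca
Tet1, chr10:62887275-62887574, minus strand: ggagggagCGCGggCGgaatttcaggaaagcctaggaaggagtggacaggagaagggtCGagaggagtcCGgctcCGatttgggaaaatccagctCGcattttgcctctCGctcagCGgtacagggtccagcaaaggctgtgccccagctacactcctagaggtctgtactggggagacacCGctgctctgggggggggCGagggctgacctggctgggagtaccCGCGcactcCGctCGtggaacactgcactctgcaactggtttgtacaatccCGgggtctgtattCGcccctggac
Tet2, chr3:133544341-133544640, minus strand: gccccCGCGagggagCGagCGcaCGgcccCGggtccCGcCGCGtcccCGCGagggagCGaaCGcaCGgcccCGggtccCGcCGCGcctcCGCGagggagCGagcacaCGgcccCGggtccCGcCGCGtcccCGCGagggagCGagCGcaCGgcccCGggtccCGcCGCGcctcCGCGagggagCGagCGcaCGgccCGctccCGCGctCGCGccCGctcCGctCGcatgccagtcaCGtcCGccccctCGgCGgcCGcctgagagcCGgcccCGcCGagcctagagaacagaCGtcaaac

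These windows differed widely in CpG number. The Tet2 window held 57 CpGs, more than 99.8% of the 32841 windows of this length, and the Dnmt3a window held 47. The Dnmt1 window held 33, whereas the other Dnmt1 starts, farther upstream, held 12 and 2. The Tet1 window held 17 CpGs, and the 3 Dnmt3l windows held 6, 4 and 3, against a median of 7 over all windows. The remaining members had 33 CpGs (Uhrf1, at its richer start), 30 (Dnmt3b), 28 (Uhrf2), 26 (Tdg) and 22 (Tet3). Of the E2F motif only the forms TTTCCCGC and TTTGGCGC were searched, on both strands. A match to these was found in 1.57% of all windows and in 1 of the 17, that of Dnmt1 shown above, as TTTGGCGC. Other forms of the motif were not searched, so their absence from the windows is not shown. Reads were counted per gene, so the starts of a gene could not be told apart in these data.

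Among the genes grouped here under maintenance, Dnmt1 and Uhrf1 were slightly higher under the extracranial label. Uhrf2, grouped with them as a paralog of Uhrf1, was lower there. Dnmt1 (ENSMUSG00000004099) was measured with 1771 counts under the intracranial label, or 51.0 CPM (48.6 to 53.4, 95% Clopper-Pearson interval). Under the extracranial label 1725 counts were found, or 64.5 CPM (61.5 to 67.6). The log2 ratio extracranial over intracranial was 0.34, with a conditional exact interval of 0.24 to 0.44, so the libraries differed by 1.26-fold (1.18 to 1.35), more than counting error. Uhrf1, the partner that recruits DNMT1, had 1210 and 1046 counts, at 34.8 CPM (32.9 to 36.8) and 39.1 CPM (36.8 to 41.5). Its log2 ratio of 0.17 (0.05 to 0.29) was small and just beyond counting error. Uhrf2, a paralog of Uhrf1 that binds hydroxymethylated DNA, had the highest CPM of the 10 genes in both libraries, at 88.0 CPM (84.9 to 91.2) and 67.4 CPM (64.3 to 70.6). Its log2 ratio was -0.39 (-0.47 to -0.30), in the direction opposite to that of Uhrf1.

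**Figure D1:**
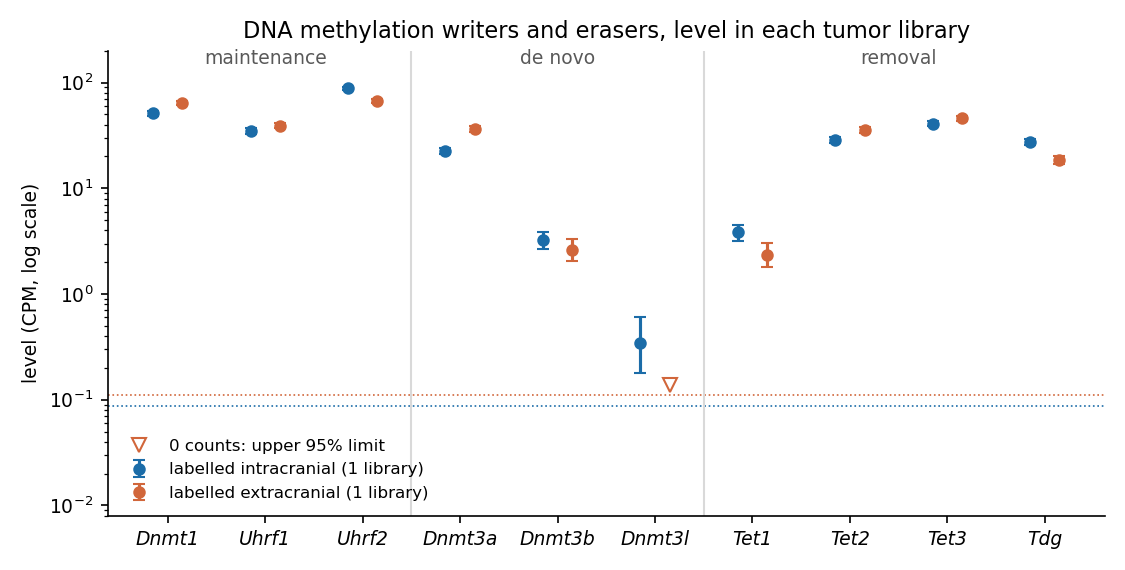
Level of each of the 10 genes (CPM, log scale) in the library labelled intracranial and the library labelled extracranial, 1 library each, with exact 95% counting intervals; dotted lines mark the floor of 3 counts in each library. Dnmt3b and Tet1 lie between 2.35 and 3.83 CPM, Dnmt3l lies below them with an open triangle for its upper limit at 0 counts, and the other genes lie between 18.4 and 88.0 CPM.

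The de novo methyltransferases were led by Dnmt3a, while Dnmt3b was low and Dnmt3l was near or at 0. Dnmt3a (ENSMUSG00000020661) reached 785 counts under the intracranial label, or 22.6 CPM (21 to 24.2), and 968 under the extracranial label, or 36.2 CPM (33.9 to 38.5). Its log2 ratio of 0.68 (0.54 to 0.82), or 1.60-fold, was the highest of the 10 genes toward the extracranial label. Dnmt3b, which is best known from early embryos and pluripotent cells, had 112 and 70 counts, which is 3.22 CPM (2.65 to 3.88) and 2.62 CPM (2.04 to 3.30). It was the 1 gene of the set whose ratio lay within counting error (-0.30, -0.75 to 0.14). For Dnmt3l, 12 counts under the intracranial label gave 0.345 CPM (0.178 to 0.603), and 0 counts in the other library allow up to 0.138 CPM. With the 0 set to the floor of 3 counts per library, the intracranial label was 3.08-fold higher, but the counting interval reached down to 2.14-fold. These few reads cannot be assigned with certainty, since 67 bases of Dnmt3l exon overlap the opposite strand gene Aire (2 and 0 counts) and the use of strand in counting was not stated. The processed pseudogene Dnmt3l-ps1 had 3 and 2 counts, which is 20% and 100% of the reads of gene and copy together, so the 0 of Dnmt3l stood beside 2 reads on its copy. Dnmt3c, the rodent-specific copy of Dnmt3b, had 3 and 4 counts, at or near the floor.

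Of the genes that remove methylation, Tet2 and Tet3 were well above Tet1 in both libraries. Tet3 had 1418 and 1226 counts, at 40.8 CPM (38.7 to 43.0) and 45.8 CPM (43.3 to 48.5). Tet2 had 990 and 948 counts, at 28.5 CPM (26.7 to 30.3) and 35.4 CPM (33.2 to 37.8). Both were somewhat higher in the library labelled extracranial, with log2 ratios of 0.17 (0.06 to 0.28) for Tet3 and 0.31 (0.18 to 0.44) for Tet2. Tet1, the family member prominent in PGCs and embryonic stem cells, had only 133 and 63 counts, at 3.83 CPM (3.20 to 4.54) and 2.35 CPM (1.81 to 3.01). Its ratio pointed the other way (-0.70, -1.16 to -0.26), which is 1.63-fold lower in the library labelled extracranial. Tdg, the glycosylase downstream of the TET enzymes, had 959 and 492 counts, at 27.6 CPM (25.9 to 29.4) and 18.4 CPM (16.8 to 20.1), and was likewise lower there (-0.59, -0.75 to -0.43). The processed pseudogene Tdg-ps took 554 and 285 counts, which is 36.6% and 36.7% of the reads of gene and copy together, and reads common to gene and copy cannot be assigned with certainty. The sum of both gave a ratio of -0.58 (-0.71 to -0.46). Tdg exons also overlap the opposite strand gene Glt8d2 over 367 bases, but this neighbor had only 27 and 14 counts.

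Counted over the set, the interval lay wholly above 1-fold toward the extracranial label for 5 of the 10 genes (Dnmt1, Dnmt3a, Tet2, Tet3 and Uhrf1), against 29.2% of the 21977 genes tested, and wholly toward the intracranial label for 4 (Dnmt3l, Tdg, Tet1 and Uhrf2), against 32.2%. Beyond 2-fold lay 0 and 1 of the 10 genes (Dnmt3l, on its 12 counts), against 5.86% and 9.77% of all genes. Dnmt3l met the minimum of 10 counts only through the library labelled intracranial, where it was higher, so its calls rest on that library alone. Beyond 4-fold lay 0 in either direction, against 1.78% and 5.41%. The median log2 ratio of the 10 genes was -0.07, beside -0.04 for all genes tested. When the edgeR exact test was run with a coefficient of biological variation set by assumption to 0.4, it called 0 of the 10 genes, against 6.71% of all genes. That value is an assumption and was not measured here, since the spread between tumors of a location cannot be estimated from 1 library, and no p is given.

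**Figure D2:**
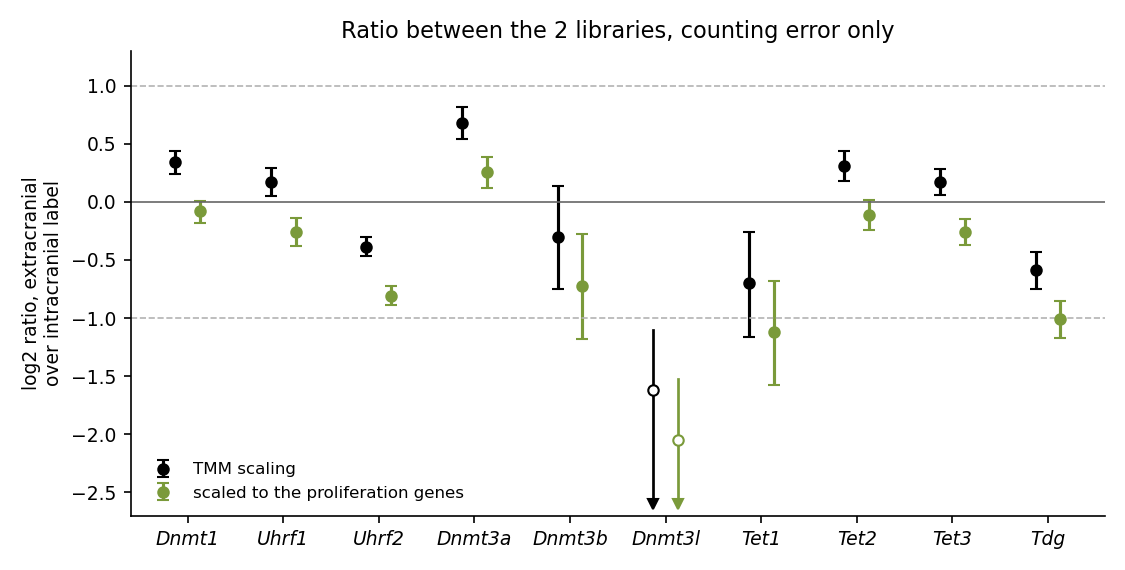
Log2 ratio extracranial over intracranial of each gene with its conditional exact 95% interval, on TMM-scaled libraries (black) and on libraries scaled to the summed counts of proliferation genes (green); dashed lines mark 2-fold, and open points with arrows mark Dnmt3l with its 0 counts set to the floor of 3, which is no limit on the ratio. On the TMM scale 5 genes lie above 0 beyond counting error and 4 below it, and with the proliferation scaling Dnmt3a alone remains above 0 beyond counting error.

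The direction for several members depended on what the libraries were compared against. Proliferation genes were higher under the extracranial label, 14 of 16 beyond counting error and 0 in the other direction, with a median log2 ratio of 0.35. Mki67, a marker of cycling cells, had 90.6 and 132 CPM (0.54, 0.47 to 0.61), and Top2a, a topoisomerase of dividing cells, had 73.7 and 101 CPM (0.45, 0.37 to 0.53). Relative to the summed counts of this list, which moved the median of all genes by -0.42, the ratio of Dnmt1 was -0.08 (-0.18 to 0.01) and that of Tet2 -0.11 (-0.24 to 0.02), both within counting error. Uhrf1 and Tet3 turned to -0.26 (-0.38 to -0.14) and -0.26 (-0.37 to -0.15). Dnmt3a stayed higher in the library labelled extracranial at 0.26 (0.12 to 0.39), whereas Uhrf2 (-0.81) and Tdg (-1.01) moved farther toward the intracranial label.

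Markers of other cell types also differed between the libraries, in both directions. Macrophage markers, 5 of 5, were higher under the extracranial label and summed to 4223 and 8543 CPM, and endothelial markers were higher there too, 4 of 4, at 71.3 and 163 CPM. Keratinocyte markers, 5 of 5, and neutrophil markers, 3 of 3 tested, were higher under the intracranial label. Neutrophil markers summed to 683 and 0.822 CPM. Under the intracranial label this sum came almost wholly from S100a8 (258 CPM) and S100a9 (416 CPM). Retnlg was there at 8.81 CPM and Elane, not tested, at 1 count, and both had 0 counts in the library labelled extracranial. Skeletal muscle markers, at 25.2 and 9.01 CPM, and Schwann cell markers, 4 of 4 each, were higher under the intracranial label too. T cell markers and B and plasma cell markers were higher under the extracranial label for 2 of 4 each, with the others within counting error. Fibroblast markers, at 1516 and 2387 CPM, split 2 and 2, as did neuron markers. The 2 germ or pluripotent cell markers tested were within counting error. The part of these cells in the ratios of the 10 genes was not tested.

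To compare the genes with each other, CPM were divided by the summed exon length of each gene, which is 1.08 (Tet1) to 2.43 (Uhrf2) times its longest transcript. In the library labelled intracranial the order was Uhrf2 (10.2 CPM per kilobase, 9.89 to 10.6), Uhrf1 (8.18), Dnmt1 (6.91), Tdg (5.14), Tet3 (2.44), Tet2 (1.69), Dnmt3a (1.36), Dnmt3b (0.631), Tet1 (0.248) and Dnmt3l (0.116), and no neighbors had overlapping intervals. In the library labelled extracranial the order was Uhrf1 (9.18, 8.63 to 9.75), Dnmt1 (8.74, 8.33 to 9.16), Uhrf2 (7.85), Tdg (3.42), Tet3 (2.74), Dnmt3a (2.17, 2.04 to 2.31), Tet2 (2.10, 1.97 to 2.24), Dnmt3b (0.512), Tet1 (0.152) and Dnmt3l (0). Here the intervals of Uhrf1 and Dnmt1 overlapped, as did those of Dnmt3a and Tet2. On this scale both libraries placed Uhrf1, Uhrf2 and Dnmt1 at the top and Dnmt3b, Tet1 and Dnmt3l at the bottom. On CPM without length Tet3 ranked above Uhrf1 in both libraries, so the top group depends on the length correction. Among 16543 protein-coding genes above the floor, Dnmt1 lay at percentiles 67.6 and 73.4 and Uhrf1 at 71.5 and 74.5. Dnmt3a lay at percentiles 33 and 44, Tet2 at 36.5 and 43.4, Dnmt3b at 24.0 and 27.0, and Tet1 at 16.1 and 17.6.

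**Figure D3:**
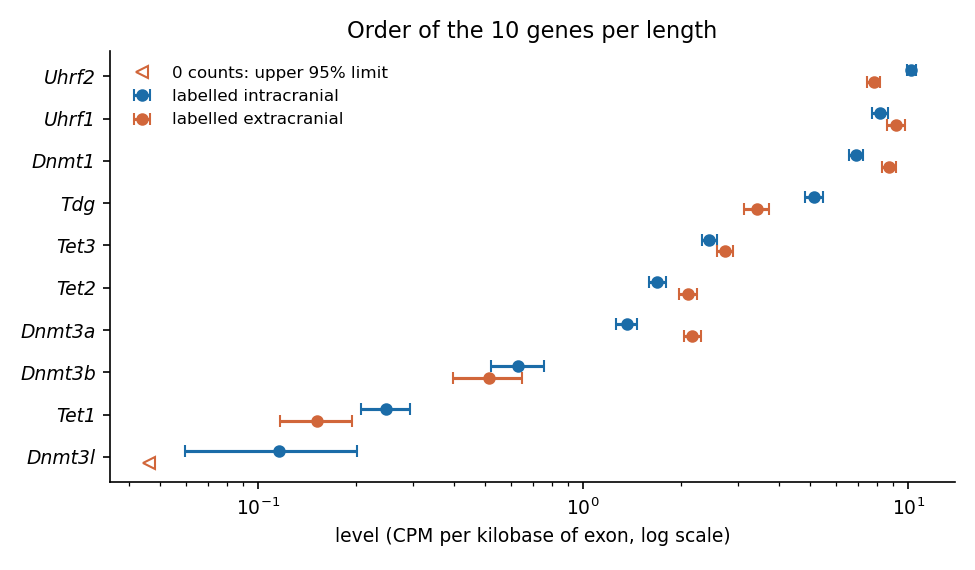
Level per kilobase of exon (CPM per kilobase, log scale) of the 10 genes, ordered by the library labelled intracranial, with exact 95% counting intervals; the open triangle is the upper limit at 0 counts. Uhrf2, Uhrf1 and Dnmt1 lie between 6.91 and 10.2, and Tet1 lies at 0.248 and 0.152.

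Ratios of 2 genes within a library need no scaling between libraries, and several of them differed. Dnmt3a over Dnmt3b, per kilobase, was 2.15 (1.76 to 2.65) under the intracranial label and 4.24 (3.33 to 5.49) under the extracranial one, intervals that do not overlap. Tet2 over Tet1 was 6.82 (5.69 to 8.24) and 13.8 (10.7 to 18.1), again apart, so that Tet1 made up 5.65% and 3.05% of the summed TET level. Dnmt1 over Dnmt3a was 5.09 (4.68 to 5.54) and 4.02 (3.71 to 4.35), with separate intervals. Those of Tdg over Tet3, at 2.1 (1.93 to 2.28) and 1.25 (1.12 to 1.39), were separate too. Uhrf2 over Uhrf1 went from 1.25 (1.17 to 1.34) to 0.855 (0.792 to 0.924). By the longest transcript and on CPM without length, Uhrf2 ranked above Uhrf1 in both libraries. Which of these genes was higher under the extracranial label therefore rests on the length used, as does the size of each pair value. Less different were Uhrf1 over Dnmt1, at 1.18 (1.10 to 1.27) and 1.05 (0.972 to 1.13), whose intervals overlap, and Tet3 over Tet2, at 1.45 (1.33 to 1.57) and 1.31 (1.20 to 1.42), which overlap too. Dnmt1 made up 77.6% and 76.5% of the summed level of Dnmt1, Dnmt3a and Dnmt3b. That sum was 2.03 times the sum of Tet1, Tet2 and Tet3 in the library labelled intracranial and 2.29 times in the other. The size of this quotient rests on the length used, since it was 1.05 and 1.24 on CPM without length, with the library labelled extracranial higher in each case.

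The genes around this set were described from lists of known roles. In these lists a gene was counted as higher under a label where its ratio lay beyond counting error. Of all genes tested, 29.2% were so toward the extracranial label and 32.2% toward the intracranial one, and the list counts stand beside these shares. Of 7 maintenance partners, 3 were higher under the extracranial label and 2 under the intracranial one, with a median log2 ratio of 0.15. Pclaf, which binds the replication clamp and is ubiquitinated by UHRF1, was at 16.5 and 29.1 CPM (0.81, 0.66 to 0.97), while Cdca7, which brings the remodeler HELLS to chromatin, was at 22.4 and 15.5 CPM (-0.53, -0.71 to -0.36). The list called methyl-CpG readers here was drawn by gene family, and membership does not mean that a gene binds methylated CpGs. Of its 10 genes, 1 was higher under the extracranial label and 4 under the intracranial one (median -0.14). Its ends were Zbtb38, a zinc finger reader at 78.9 and 39.9 CPM (-0.98, -1.09 to -0.88), and Mbd3, a subunit of the NuRD complex at 77.2 and 89.8 CPM (0.22, 0.14 to 0.30). Of 11 base excision repair genes, 4 were higher under the extracranial label and 5 under the intracranial one (median -0.03). At the ends of this list were the glycosylases Neil3, with 5.99 and 12.8 CPM (1.09, 0.84 to 1.35), and Neil2, with 2.16 and 1.42 CPM (-0.60, -1.21 to -0.02).

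For TET partners and cofactor supply, 4 of 11 genes were higher under the extracranial label and 3 under the intracranial one (median 0.10). Cxxc5, a CXXC domain protein related to the DNA-binding part of TET enzymes, had 15 and 25.4 CPM (0.76, 0.59 to 0.93), and Idh1, which makes the TET cosubstrate alpha-ketoglutarate, had 102 and 77.7 CPM (-0.39, -0.47 to -0.32). In the methyl donor cycle, which supplies S-adenosylmethionine to DNMTs, 3 of 7 genes tested were higher under the extracranial label and 4 under the intracranial one (median -0.18). Its opposite ends were Mat2a, which makes S-adenosylmethionine, at 213 and 334 CPM (0.65, 0.60 to 0.69), and Ahcy, which clears the by-product S-adenosylhomocysteine, at 108 and 50.4 CPM (-1.10, -1.19 to -1.01). Ahcy differed by 2.14-fold and was the 1 gene of this list whose interval lay beyond 2-fold. Bhmt, the 8th gene, had 1 and 0 counts.

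Histone methyltransferases whose marks are read by DNMT or UHRF proteins were higher under the extracranial label for 5 of 8 genes and under the intracranial one for 0 (median 0.26), with Suv39h1, an H3K9 methyltransferase, at 14 and 24.3 CPM (0.80, 0.63 to 0.97) and Ehmt1, another, at 36.0 and 33.5 CPM (-0.10, -0.23 to 0.02). Scaled to the proliferation genes, this median was -0.16. Of 6 tested genes that protect imprints or mark early germ cells, 4 were higher under the extracranial label and 1, Zfp445, under the intracranial one (median 0.22), and scaled to the proliferation genes this median was -0.20. Dppa3, whose protein keeps UHRF1 away from chromatin in oocytes and whose locus drove Cre here, had 20 and 91 counts, which is 0.576 and 3.40 CPM (2.56, 1.85 to 3.34). The interval is beyond 2-fold, but reads from the modified allele cannot be told apart from those of the intact one. Prdm14, a repressor of DNMT3 genes in PGCs, had 0 counts in both.

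Germline genes whose promoters are silenced by methylation in somatic cells were mostly at or near 0, with 5 and 6 of 14 above the floor and 158 and 150 counts in all. Most of these counts were from Brdt, a testis bromodomain gene, with 119 and 91 counts (-0.01, -0.42 to 0.40). Ddx4, a germ cell RNA helicase, had 5 and 21 counts (2.45, 1 to 4.21) and Sycp3, of the meiotic synaptonemal complex, 13 and 6 (-0.74, -2.42 to 0.76). Mael, Sycp1, Stk31 and Tex19.1 had 0 counts in both libraries. Of the 5 genes tested, 1 (Ddx4) was beyond counting error and 4 were within it. Their median was 0.74, beside -0.04 for all genes, and the medians of their lower and upper interval ends were -0.42 and 2.40.

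**Figure D4:**
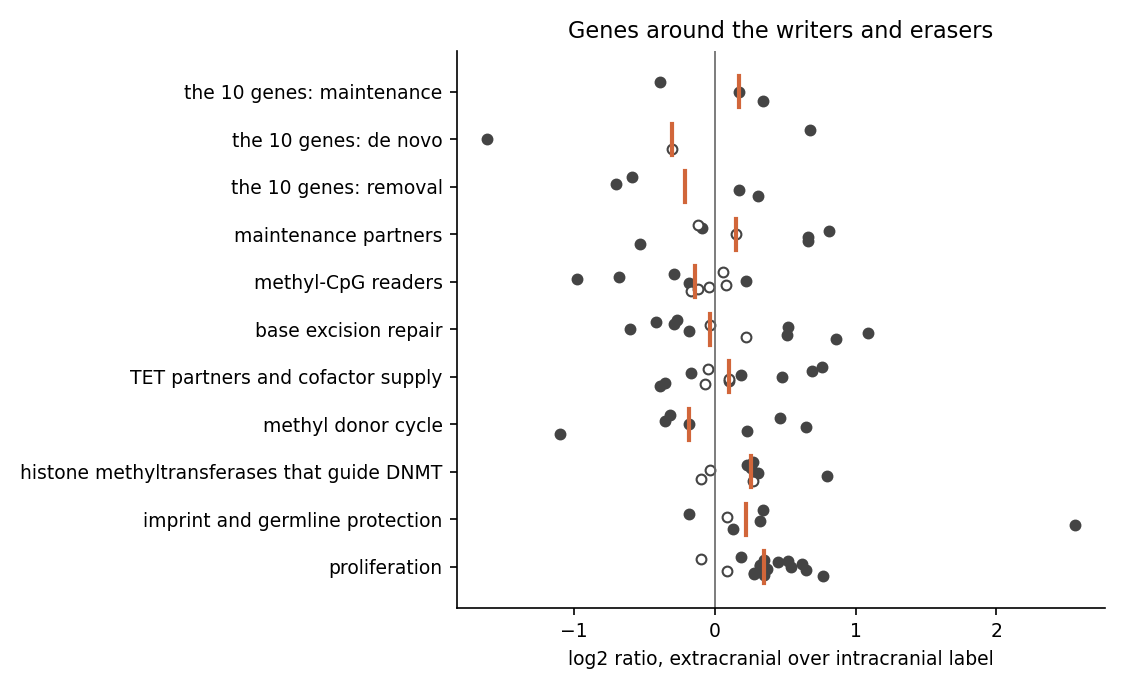
Log2 ratio extracranial over intracranial of each gene tested in the set of 10 and in the lists around it, 1 point per gene; filled points lie beyond counting error, open points within it, and orange bars are list medians, with Dnmt3l drawn with its 0 counts set to the floor and the silenced germline genes not drawn. The proliferation genes center at 0.35, the histone methyltransferases at 0.26 and the methyl-CpG readers at -0.14, and each list around the 10 genes holds points on both sides of 0.

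Finally, the protein-coding genes nearest to Dnmt1, Dnmt3a and Tet2 in level per kilobase were looked up, by Euclidean distance in log2 units over the 2 libraries. Nup107 (distance 0.0095), Mrpl58 (0.013) and Hebp1 (0.015) lay nearest to Dnmt1, with 44 genes within 0.1. Rbm8a2 (0.034), Sox7 (0.035) and BC030867 (0.062) lay nearest to Dnmt3a, with 8 within 0.1, and St5 (0.012), Tsacc (0.02) and Prdm1 (0.024) to Tet2, with 27 within 0.1. Over 2 libraries such closeness describes 2 values and no more.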

How the data were processed

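Per the methods and labels, the authors selected poly(A) RNA, built strand-specific libraries for single-read sequencing, used STAR 2.7.9a for alignment to GRCm39 with Ensembl gene models, and counted reads with featureCounts; strand use and handling of multiple alignments were not stated. The deposited values are raw counts per Ensembl gene, 1 column per tumor. Groups follow the localization label. Symbols (93.99% of IDs), exon lengths and biotypes came from GENCODE M21, which is older, so coordinates are given only for RefSeq windows on GRCm38.p6.

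Counts were scaled by TMM (edgeR 4.0.16, R 4.3.3). Levels carry Clopper-Pearson 95% intervals and ratios conditional exact binomial intervals (scipy 1.17.1), for genes with 10 or more counts over both libraries. Counts of 3 or fewer were set to 3 in ratios. No molecular identifiers were used, so reads may repeat a molecule, and intervals and floors cover counting error only. In libraries simulated with counting error only, 95.96% of 21588 intervals covered the ratio set. Of 21388 unchanged genes there, 866 were called beyond 1-fold and 1 beyond 2-fold. This checks the interval code and gives no error rate for real tumors, whose variation was not simulated.

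The members and lists were chosen with earlier results of these data known. Named were the 10 members, the ends of each list with 10 or more counts, genes beyond 2-fold, Mki67, Top2a, Smarcb1 and the nearest genes. Near-identical copies, overlapping genes, genes at 0, Brdt and Zfp445 were named after their values were seen. Alternatives comprised DESeq2 1.42.0 size factors, total counts, upper quartile and proliferation scaling, count minimums, protein-coding genes, a prior count of 2, other lengths and an assumed variation of 0.4.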

Additional observations from a re-analysis of the deposited data

How the results depend on the processing

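No paired analysis was possible because there was 1 library per location, and for the same reason no library could be left out. The DESeq2, total count and upper quartile scalings and the prior count of 2 moved no ratio of the 10 genes beyond its counting interval and moved the median of all genes by at most 0.04. Scaling to the proliferation genes moved it by -0.42. Dnmt1 (-0.08), Uhrf1 (-0.26), Tet2 (-0.11) and Tet3 (-0.26) then changed sign. Of the 10 genes, 1 lay beyond counting error toward the extracranial label and 7 toward the other, beside 2773 and 13199 of the 21977 genes tested. Most genes tested thus lay toward the intracranial label under this scaling, and not the 10 genes in particular. Of all genes, 774 and 3059 lay beyond 2-fold and 254 and 1477 beyond 4-fold, extracranial label first. The median log2 ratio became -0.49 for the 10 genes, -0.28 for maintenance partners, -0.57 for methyl-CpG readers, -0.45 for base excision repair, -0.33 for TET partners, -0.60 for the methyl donor cycle, -0.16 for histone methyltransferases, -0.20 for imprint protection, 0.32 for silenced germline genes and, by construction, -0.07 for proliferation genes. With the assumed variation, edgeR called 0 of the 10 genes in each direction, and 321 and 1154 of all genes. A minimum of 100 counts left 0 of the 10 genes beyond 2-fold, since Dnmt3l was no longer tested, beside 968 and 1492 of all genes, extracranial label first.

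By the longest transcript, 6 of 10 genes kept their rank in the library labelled extracranial, where Uhrf2 then led in place of Uhrf1, and on CPM without length 3 and 4 did, labelled intracranial first. The quotient of methyltransferases over TET genes was 1.65 and 1.86 by the longest transcript and 1.05 and 1.24 without length. Depth limits Dnmt3l, Dnmt3b, Tet1 and the germline genes most.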
